A study of Mus musculus with 11 samples.

Results

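Mature miRNAs of 2 neighbouring hairpins, Mir873a and Mir876, were followed in the cortex of mice after stroke. Their 4 arms, mmu-miR-873a-5p, mmu-miR-873a-3p, mmu-miR-876-5p and mmu-miR-876-3p, are 4 of the 1907 mature miRNA names counted in each library, and they were found by name in all 11 tables. The set was chosen by results of the same comparison that is described below, in which mmu-miR-873a-5p was already known to be lower after stroke, and the remaining arms were taken because of their place beside it. The differences between the groups are therefore given as a description, with their errors and without p-values, and nothing is read from their direction.

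The libraries came from male Balb/cOlaHsd mice, labelled as 3 months old, whose brains were collected 3 days after surgery. For 5 libraries the left middle cerebral artery was closed for good by thermocoagulation (permanent middle cerebral artery occlusion, pMCAO), and the peri-ischemic cortex, the tissue around the lesion core, was sequenced. For 6 sham libraries the artery was exposed and lifted but not closed, and the labels give the tissue as cortex, while the methods call the tissue of both groups peri-ischemic. The labels name no genetic change and no drug. The names of the deposited tables give a vehicle for both groups, which the labels do not describe. All mice shared the anaesthesia, the opening of the skull and the perfusion. The model has no reperfusion, 1 time point was sequenced, and each library is from bulk tissue, so that fewer cells of a type and less RNA per cell cannot be told apart.

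A miRNA hairpin is cut from a longer primary transcript, and the duplex that remains after the loop is removed has a 5p and a 3p arm. One arm is usually loaded into an Argonaute protein, where bases 2 to 8, the seed, pair with target mRNAs, and the other arm is mostly degraded. Hairpins that lie in an intron can be made from the transcript of their host gene. Lingo2, the host gene here, encodes a leucine-rich repeat membrane protein of the nervous system related to the myelination inhibitor Lingo1. miR-873 has been studied in astrocytes and microglia in connection with inflammatory signalling.

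The mature sequences are shown to let the arms and their seeds be compared. All 4 were found in the RefSeq miRNA table for GRCm38.p6, the assembly also called mm10, and the capitals mark the seed.
mmu-miR-873a-5p: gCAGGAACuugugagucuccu
mmu-miR-873a-3p: gAGACUGAcaaguucccggga
mmu-miR-876-5p: uGGAUUUCucugugaaucacua
mmu-miR-876-3p: uAGUGGUUuacaaaguaauuca
No 2 of these arms share a seed, so that the hairpins are neighbours by position and not a seed family. Among the other names in the tables that have a sequence in RefSeq (1623 of 1907 names have one), only mmu-miR-6370, from chromosome 6, has the seed of mmu-miR-873a-5p, and no other name has the seed of the remaining arms.
mmu-miR-6370: gCAGGAACagcaaaggggaag
It had 0 counts in every library. The miR-873a arms are 21 bases long and the miR-876 arms 22, close to the shortest read that was kept (20 bp), so that forms trimmed by more than 1 or 2 bases were not counted. The miR-873a arms hold 52.4% and 57.1% G or C and the miR-876 arms 36.4% and 27.3%. Among the names with a RefSeq sequence, the longest run of bases that any member shares with another is 10, between mmu-miR-876-3p and mmu-miR-26b-5p. It is 9 for the other members.

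Both hairpins lie on the minus strand of chromosome 4, Mir876 from 36645373 to 36645453 and Mir873a from 36668510 to 36668586, with 23056 bases between them. The capitals in the hairpins mark the 5p and 3p arms.
Mir873a: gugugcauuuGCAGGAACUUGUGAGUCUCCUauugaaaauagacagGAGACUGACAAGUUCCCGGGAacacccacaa
Mir876: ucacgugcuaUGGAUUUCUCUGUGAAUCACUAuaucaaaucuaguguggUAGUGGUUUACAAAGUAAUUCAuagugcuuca
Counting only A with U and G with C, the longest unbroken run of pairs between the arms was 9 bases in Mir873a and 5 in Mir876. Pairs of G with U were not counted, so these runs do not rank the pairing of the 2 hairpins. Lingo2 (ENSMUSG00000045083.14 in GENCODE vM21) runs along the same strand from 35706647 to 36951747. Both hairpins are in intron 2, which extends over 281280 bases from 36437587 to 36718866 in the 2 annotated transcripts, of 10, that reach across them, and neither touches an exon. The map of the host gene shows them in the same intron.

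**Figure D1:**
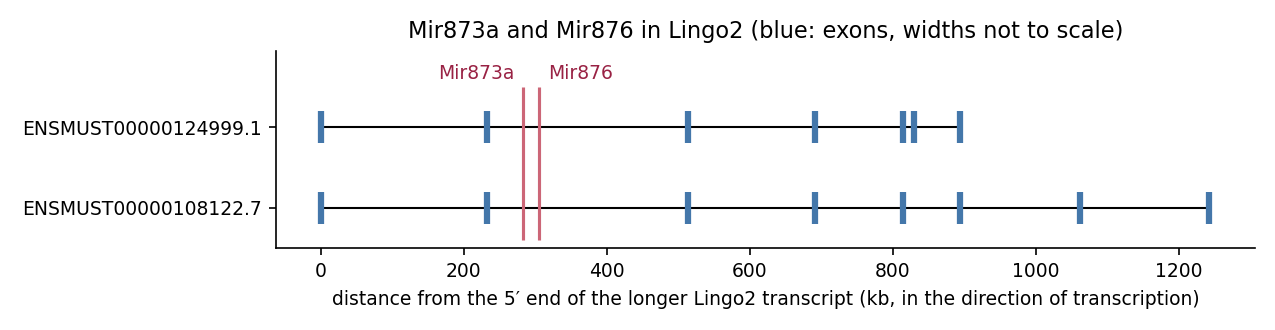
Positions of the Mir873a and Mir876 hairpins (red lines) in the 2 Lingo2 transcripts that span them; the horizontal axis is the distance in kb from the 5′ end of the longer transcript, in the direction of transcription, and blue marks are exons, drawn wider than they are. Mir873a, at 282.6 kb, and Mir876, at 305.8 kb, both lie between the exons at 232.3 and 513.6 kb.

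On the plus strand, opposite Mir873a, the annotation holds a further hairpin, Mir873b, at the same position. Its mature form is shown because 12 of its bases, in capitals, are the exact complement of the start of mmu-miR-873a-5p.
mmu-miR-873b: ACAAGUUCCUGCaaaugcacac
It had 0 counts in each of the 11 libraries, which together hold 9614 counts of mmu-miR-873a-5p. Whether the counting used the strand of the reads is not given in the sources used here.

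The counts behind these values were raw read counts per mature miRNA. Totals ran from 1429037 to 2319810 in sham and from 744877 to 1411620 in pMCAO libraries, and the 6 sham libraries were all deeper than the deepest pMCAO library, a difference in mean log2 total of -0.67 (two-sided exact permutation test, p = 0.00216, the least that 462 arrangements can give). Levels are given as CPM, counts in each 1e+06 counts of a library, scaled with the TMM method, which sets the libraries to a common level of most miRNAs. Counting error is given as an exact 95% Clopper-Pearson interval where single libraries are discussed. It leaves out PCR copies, which could not be removed. A count of 0 allows up to 3 counts, which before TMM scaling is 1.29 to 2.10 CPM in the sham and 2.13 to 4.03 CPM in the pMCAO libraries. One sham library, replicate 1, stood apart in the summed level of 4 erythrocyte miRNAs, at 5370 CPM against 49.1 to 272 CPM in the other sham libraries, and member values without it are given where they differ.

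In the sham cortex the 4 arms ranged from a well expressed miRNA to a level at or under the limit of detection. The more abundant arm of Mir873a, mmu-miR-873a-5p, had 635 CPM in sham replicate 1, 775 in replicate 2, 699 in replicate 3, 691 in replicate 4, 694 in replicate 5 and 667 in replicate 6. Its mean was 694 ± 46.5 CPM (SD, n = 6), rank 116 by level among the 479 miRNAs that passed the filter on low counts. The libraries lay close together, with a coefficient of variation of 6.71%, where counting alone gives 2.97%. It was the 17th lowest of the 479, whose median was 19.1%. This arm was chosen with its call known, and a small spread helps a call, so nothing is read from this rank. The 479 also hold low-count miRNAs, whose counting error is larger. Scaled by total counts the coefficient was 4.84%, and sham replicate 2 was then no longer the highest library.

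The opposite arm, mmu-miR-873a-3p, had 61.4 CPM in sham replicate 1, 51.3 in replicate 2, 52.6 in replicate 3, 49.9 in replicate 4, 60.4 in replicate 5 and 55.1 in replicate 6. These values rest on 77 to 103 counts per library, and their coefficient of variation, 8.73%, was below the 10.6% that counting alone would give. On the total-count scale it was 12.1%. The spread of this arm in sham is about the size of its counting error. Its mean of 55.1 ± 4.81 CPM (SD, n = 6) ranked 301 of 479.

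From Mir876 little was recovered. mmu-miR-876-5p had 8 counts in sham replicate 1, 3 in replicates 2 and 3, and 4 in replicates 4, 5 and 6, or 2.73 ± 1.24 CPM (SD, n = 6). Of the 6 libraries, 4 were above the floor of 3 counts. A single count of mmu-miR-876-3p (1 count) came from sham replicate 6, and the rest of the group had 0. Neither passed the filter, so 2 of the 4 members entered the fit across all miRNAs.

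In sham, the first 3 arms kept 1 order of level in all 6 libraries. mmu-miR-873a-5p exceeded mmu-miR-873a-3p by 3.63 ± 0.20 on the log2(CPM + 1) scale (SD, n = 6), a ratio of the mean CPM of 12.6. The arm mmu-miR-873a-3p exceeded mmu-miR-876-5p by 3.97 ± 0.34 on the same scale (SD, n = 6), a ratio of mean CPM of 20.2. Between mmu-miR-876-5p and mmu-miR-876-3p the difference was 1.73 ± 0.53 (SD, n = 6), from 26 counts against 1. In sham replicates 2 and 3 the 3 counts of mmu-miR-876-5p are at the floor that a count of 0 allows, so this last step was not resolved there and no p is read from it. Each of the steps above it had p = 0.0313 in an exact paired sign-flip permutation test, two-sided. That is the smallest p that 6 libraries allow, and it was the same after Benjamini-Hochberg adjustment over the 3 steps computed. The order was set by the mean levels in these same 6 libraries, so the p only restates that every library kept it. Although all arms are of about the same length, reads of different sequence can be ligated and read with different efficiency, and that share of these differences was not tested.

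After pMCAO, mmu-miR-873a-5p had 462 CPM in replicate 1, 370 in replicate 2, 524 in replicate 3, 465 in replicate 4 and 542 in replicate 5. All 5 values lie under the lowest sham library (635 CPM), and replicate 2 is the lowest. The mean was 472 ± 67.4 CPM (SD, n = 5), and the log2 fold change of pMCAO over sham was -0.55 (standard error 0.11) in edgeR, which corresponds to 68.2% of the sham level. The spread was wider than in sham, at a coefficient of variation of 14.3%, where counting alone gives 4.20%.

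The gap between the groups depends on the scaling. By total counts alone the sham libraries ranged from 607 to 692 CPM and the pMCAO libraries from 420 to 594 CPM. The groups were still apart but by only 13.0 CPM, and the share of all tested miRNAs apart on this scale is not given. In sham replicate 1, the lowest of its group on this scale, counting error alone extends from 570 to 645 CPM, and in pMCAO replicate 5, the highest, from 554 to 635 CPM. This scaling gave a log2 fold change of -0.38 and raised the median of all tested miRNAs to 0.18.

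For mmu-miR-873a-3p the pMCAO values were 45.0 CPM in replicate 1, 26.0 in replicate 2, 55.2 in replicate 3, 50.8 in replicate 4 and 29.1 in replicate 5. Replicates 3 and 4 lie within the sham range and the other 3 below it, so that the groups overlap. Its mean was 41.2 ± 13.0 CPM (SD, n = 5), and the log2 fold change was -0.41 (standard error 0.20). Here the coefficient of variation was 31.6%, above the 14.3% that counting alone gives on 22 to 69 counts. Replicate 2 was the lowest pMCAO library for both arms, whereas replicate 5 was the highest for the 5p arm and the second lowest for the 3p arm. Without replicate 5 the log2 fold change of the 3p arm was -0.29, and without replicate 2 it was -0.30.

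Of the 2 members tested, 1 was called lower at an adjusted p under 0.05, mmu-miR-873a-5p, and 0 were called higher. Over all 479 miRNAs 13 were called lower, 2.71% of those tested. In 16 of the 479 (3.34%) every pMCAO library was under every sham library, and mmu-miR-873a-5p was 1 of them. By total counts alone 1 was called lower and 43 higher, against 13 and 21 here. Leaving out sham replicate 2, 3, 4 or 6 lowered the 13 to 3, 3, 4 and 4, and leaving out pMCAO replicate 1, 2, 4 or 5 lowered it to 5, 3, 7 and 2. mmu-miR-873a-5p was called in 11 of 11 fits that each left out a library and in 10 of 10 other settings. mmu-miR-873a-3p was called in 0 of these fits. Because the set was chosen on this comparison, nothing is read from these counts. By size, the fold change of mmu-miR-873a-5p was the 10th lowest of the 479 and that of mmu-miR-873a-3p the 27th lowest.

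**Figure D2:**
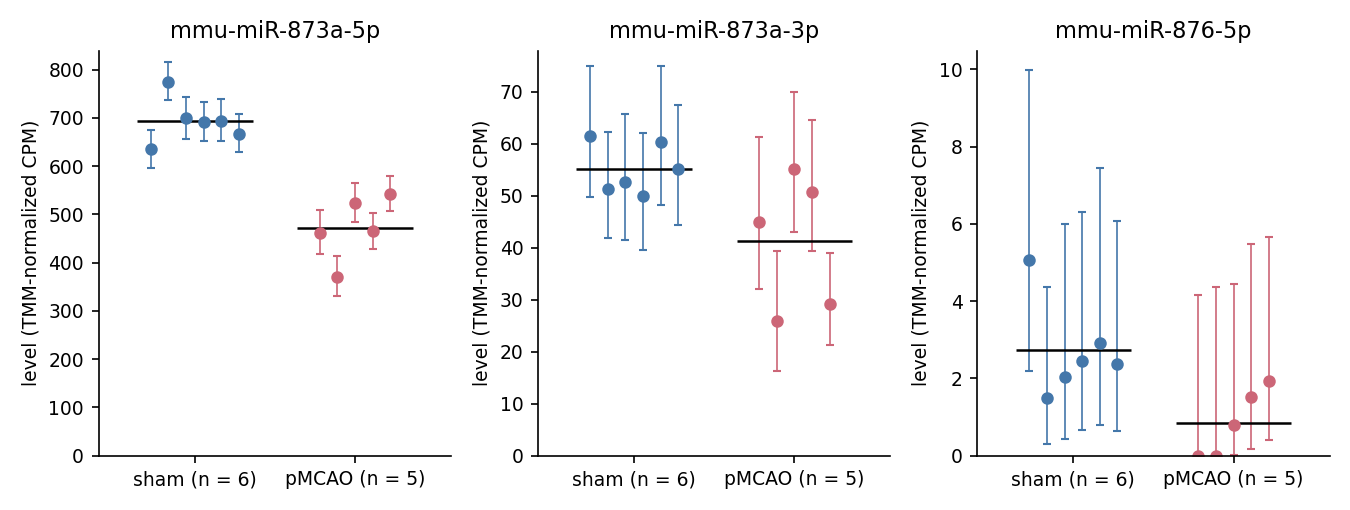
Level of 3 members in each library, in TMM-normalized CPM, for sham (blue) and pMCAO (red); points are libraries in replicate order, bars are exact 95% counting intervals and black lines are group means. The pMCAO points of mmu-miR-873a-5p, at 370 to 542 CPM, lie under all sham points, those of mmu-miR-873a-3p overlap with sham, and mmu-miR-876-5p is close to 0 in both groups.

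mmu-miR-876-5p had 0 counts in pMCAO replicates 1 and 2, 1 count in replicate 3, 2 in replicate 4 and 3 in replicate 5. No pMCAO library was above the floor of 3 counts, and both libraries without a count were the shallowest of the series. At the pooled sham rate of 2.52 CPM, 13.8 counts would fall in the pMCAO libraries, against 6 observed. With TMM scaling, the ratio of the pooled levels, pMCAO over sham, was 0.384 with an exact counting interval of 0.129 to 0.954. By total counts it was 0.434 (interval 0.146 to 1.08), and without sham replicate 1, which holds 8 of the 26 sham counts, it was 0.465 (0.151 to 1.22). Without pMCAO replicate 1, 2 or 3 the upper bound was 1.12, 1.12 and 1.08, so that whether the interval held 1 depended on the scaling and on single libraries. These intervals cover counting error alone and leave out the spread between mice. mmu-miR-876-3p had 0 counts in the pMCAO libraries and 1 in sham, both under the floor, so no ratio is given.

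**Figure D3:**
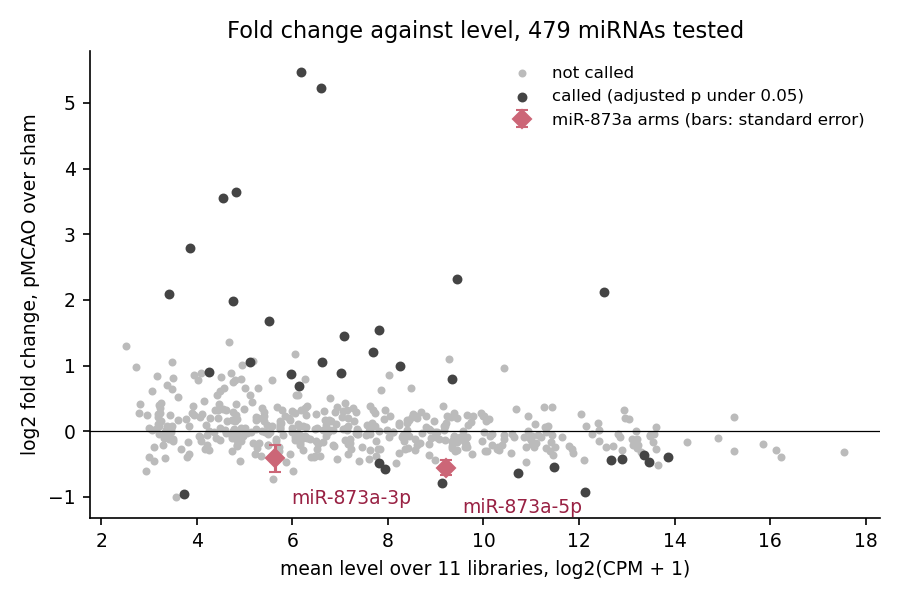
Log2 fold change of pMCAO over sham against the mean level over all 11 libraries, log2(CPM + 1), for the 479 miRNAs tested by edgeR; dark points are called at an adjusted p under 0.05, grey points are not, and red diamonds are the miR-873a arms with their standard errors. Both arms lie under 0, at -0.55 for the 5p arm and -0.41 for the 3p arm.

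The proportion of the Mir873a arms differed little between the groups. The 5p arm took 92.6 ± 0.944% of the hairpin's counts in sham (SD, n = 6), between 91.2 and 93.8%, and 92.0 ± 2.06% in pMCAO (SD, n = 5), between 90.1 and 94.9%. The difference of the group means is smaller than either SD. Expressed as the mean log2 ratio of 5p to 3p counts, with 0.5 added to each count, the values were 3.65 ± 0.20 and 3.55 ± 0.44. Among the 120 hairpins whose arms both passed the filter and each come from 1 locus, the 5p arm was the higher one in 65, and Mir873a ranked 29 from the 5p side. Its arms differed in log2 fold change by -0.14 (5p minus 3p), where the median size of this difference over the 120 hairpins was 0.19, and 43 hairpins had a smaller one. In Mir876, 26 of the 27 sham counts were from the 5p arm (96.3%, exact 95% interval 81.0 to 99.9%), as were 6 of 6 in pMCAO (interval 54.1 to 100%).

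**Figure D4:**
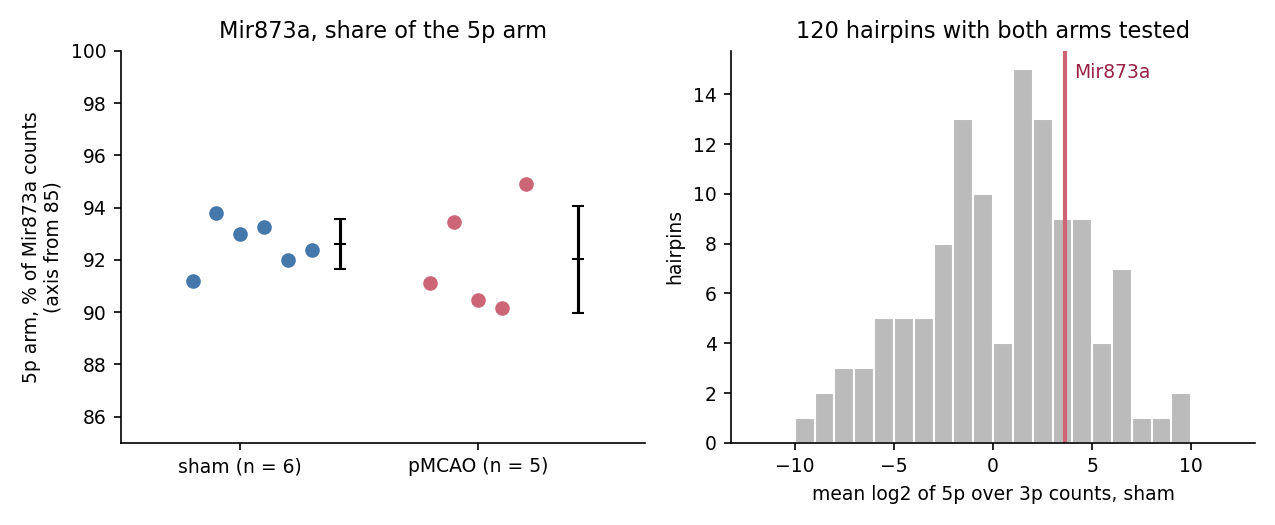
Left, share of Mir873a counts on the 5p arm in each library, in percent on an axis that does not start at 0, with the group mean and SD in black. Right, mean log2 ratio of 5p to 3p counts in sham for the 120 hairpins with both arms tested, in bins of 1; the red line marks Mir873a at 3.65, on the side where the 5p arm is higher.

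No relation between the levels of the Mir873a arms passed a test within the sham group. Their log2(CPM + 1) values over the 6 sham libraries had a Pearson r of -0.61 (exact permutation over all pairings, two-sided, p = 0.208) and a Spearman rho of -0.54 (exact p = 0.297). This was the only pair with at least 10 counts in every library, so no adjustment was needed. Without sham replicates 1 and 2, the libraries farthest from the median, r was -0.08 over 4 libraries, and by total counts it was -0.11 over all 6. The range of levels in sham is narrow for both arms, and neither a positive nor a negative relation can be read from it.

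The nearest other hairpins on chromosome 4 with an arm that passed the filter were Mir32, 20.2 Mb towards higher coordinates, and Mir491, at 51.5 Mb, while none before Mir876 passed. Sham libraries held miR-32-5p at 29.0 ± 7.15 CPM (SD, n = 6) and pMCAO libraries at 29.9 ± 3.01 CPM (SD, n = 5), and its log2 fold change was 0.05 with a standard error of 0.19. miR-491-5p had 30.6 ± 13.9 and 27.6 ± 14.9 CPM, with a log2 fold change of -0.15 and a standard error of 0.41. Neither passed the test (adjusted p = 0.955 and 0.913 from edgeR). Of the 17 other tested miRNAs with a hairpin on this chromosome, 0 rose and 1 fell, where 2.71% of all 479 were called lower. The median log2 fold change of the 17 was -0.24, against 0.00147 over all 479. The one that fell, miR-34a-5p, which the tumour suppressor p53 induces, was named after its value was seen. It went from 5659 ± 1117 CPM to 2993 ± 1353 CPM, or by -0.92 on the log2 scale with a standard error of 0.25 (edgeR, adjusted p = 0.0412), and was called in 4 of 10 alternative settings (other normalizations, filters and tools, thinning and the replicate block) and in 3 of 11 fits that each left out a library.

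miRNAs in introns of other genes that neurons express were taken as a comparison. Of 19 on this list, 18 were tested, 0 rose and 1 fell, where 2.71% of all 479 tested miRNAs were called lower. The median log2 fold change of the 18 was -0.15. The one that fell was miR-582-3p, from an intron of the phosphodiesterase gene Pde4d, with 258 ± 41.4 CPM in the 6 sham libraries against 185 ± 20.7 CPM in the 5 pMCAO libraries (mean ± SD). Its change was -0.48 on the log2 scale with a standard error of 0.13 (edgeR, adjusted p = 0.0412), and it was called in 3 of the 10 other settings and in 2 of the 11 fits without a library. By total counts alone the median of the list was 0.02 and 0 of the 18 were called. The most abundant, miR-128-3p, miR-218-5p, miR-139-5p and miR-551b-3p, did not pass the test, with log2 fold changes of -0.39, -0.12, 0.21 and -0.17. The lowest fold changes on the list, after miR-582-3p, were -0.42 for miR-490-3p and -0.39 for miR-128-3p, beside -0.55 and -0.41 for the miR-873a arms.

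The levels of cell type markers are given beside these values, and the calls that held in every fit were those of 3 leukocyte miRNAs. Over all 479 miRNAs tested, 21 were called higher and 13 lower (2.71%). The 8 neuron miRNAs, which include miR-124-3p and the miR-9 arms, were all tested and 0 of them passed in either direction, with a median log2 fold change of -0.07. By total counts alone that median was 0.10 and 1 of the 8 was called higher. miR-124-3p, the most abundant of them, stood at -0.32 on the log2 scale with a standard error of 0.09 (edgeR, adjusted p = 0.0523), and was called lower in 1 of the 11 fits without a library, that without sham replicate 6. Their summed level ran from 333071 to 422822 CPM in sham and from 286444 to 336240 CPM in pMCAO, and none of the 8 was at 0. It was lowest in pMCAO replicate 2, the library with the lowest mmu-miR-873a-5p. pMCAO replicates 1, 4 and 5 had sums of 336240, 335662 and 333549 CPM and mmu-miR-873a-5p at 462, 465 and 542 CPM. Sham replicate 6 had a sum of 333071 CPM and mmu-miR-873a-5p at 667 CPM, so no shared order is read from pMCAO replicate 2. For the 3 oligodendrocyte miRNAs the sums were 4283 to 5239 CPM and 2528 to 4951 CPM, and 1 of the 3 fell, miR-338-3p, by 0.54 on the log2 scale with a standard error of 0.15 (edgeR, adjusted p = 0.0453). That call was made in 3 of the 10 other settings and in 1 of the 11 fits without a library. The 4 leukocyte miRNAs had sums that overlapped, at 2420 to 3715 CPM in sham and 3146 to 6358 CPM in pMCAO, the highest in replicate 2. The median sums were 3243 and 3423 CPM, and in sham most of the sum was miR-150-5p, at 2733 CPM. Of these 4, 3 rose, in every setting and in every fit without a library. They were miR-223-3p, a miRNA of myeloid cells, by 2.31 on the log2 scale (edgeR, adjusted p = 0.00544), and both arms of miR-142a, the 3p arm by 1.55 and the 5p arm by 1.46 (edgeR, adjusted p = 0.00569 for each). miR-150-5p did not pass, at -0.25. Of the 4 erythrocyte and the 2 endothelial miRNAs, 2 and 2 were tested and 0 passed in edgeR (adjusted p = 0.672 for miR-451a and 0.537 for miR-144-3p), and the sums were 49.1 to 5370 and 9184 to 13005 CPM in sham and 638 to 4730 and 9510 to 13642 CPM in pMCAO. Without sham replicate 1, both erythrocyte miRNAs tested were called higher in pMCAO, and their median log2 fold change was 3.73 in place of 1.07. The part of such shifts in the level of the miR-873a arms was not tested.

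Set against the summed neuron miRNAs of the same library, the difference in mmu-miR-873a-5p was smaller. This ratio needs no normalization and was added after the data were seen. Most of the sum is miR-124-3p and miR-128-3p, with means of 209633 and 86247 CPM in sham and log2 fold changes of -0.32 and -0.39. The third most abundant, miR-138-5p, was at 0.21, and 5 of the 8 were below 0, so the ratio mainly follows those first 2 miRNAs. Per 10000 counts of the 8 neuron miRNAs, sham replicates 1 to 6 had 17.1, 18.3, 16.9, 17.1, 19.6 and 20.02 counts of mmu-miR-873a-5p, and pMCAO replicates 1 to 5 had 13.7, 12.9, 16.2, 13.8 and 16.2. The groups stayed apart, with 16.2 as the highest pMCAO and 16.9 as the lowest sham value. The share of all tested miRNAs that stay apart on this scale is not given, so nothing is read from that. The mean log2 difference was -0.32, against -0.24 for the summed neuron level itself. mmu-miR-873a-3p had 1.46 ± 0.238 per 10000 in sham (SD, n = 6) and 1.27 ± 0.369 in pMCAO (SD, n = 5), with overlap.

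**Figure D5:**
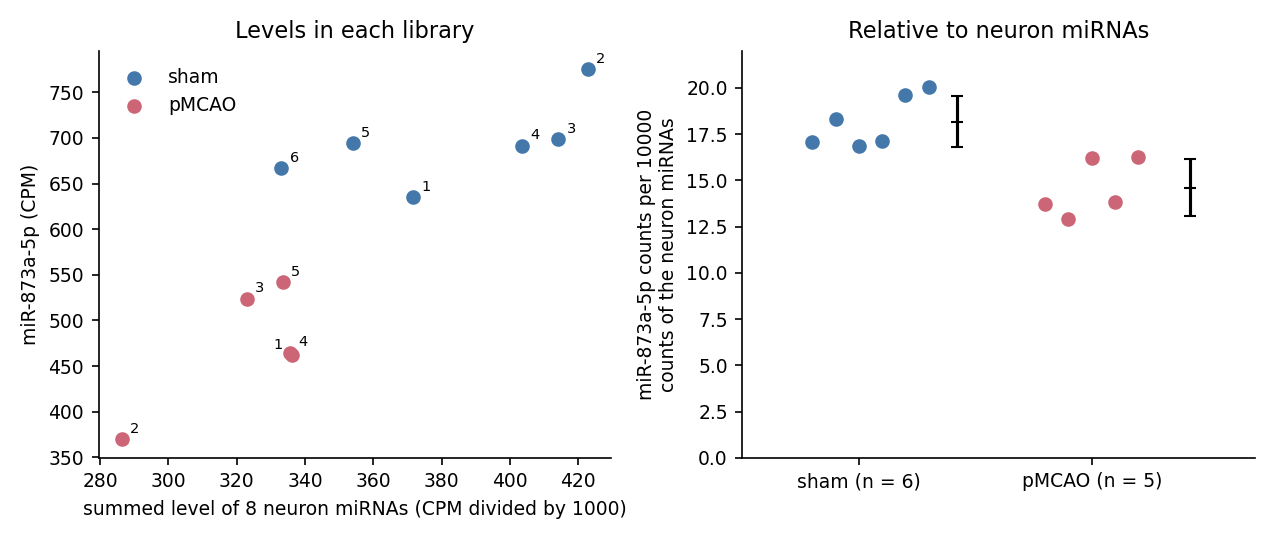
Left, level of miR-873a-5p in CPM against the summed level of 8 neuron miRNAs in CPM, on an axis scaled down as labelled. Points are 1 per library with its replicate number, sham in blue and pMCAO in red. pMCAO replicate 2 is the lowest on both axes, while sham replicate 6 and pMCAO replicate 5 have similar neuron sums and different miR-873a-5p levels. Right, counts of miR-873a-5p per 10000 counts of the neuron miRNAs, with the group mean and SD in black; pMCAO libraries lie between 12.9 and 16.2 and sham libraries between 16.9 and 20.02.

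The miRNAs whose pattern was most like that of mmu-miR-873a-5p were looked for over the 11 libraries, as the Pearson correlation of deviations from the group means, which leaves the difference between the groups out. Of 478 compared, the highest were miR-345-3p (r = 0.89), miR-335-5p (0.88), miR-301b-3p (0.81), miR-384-5p (0.76) and miR-379-5p (0.76), where the median over all was -0.04. They share the libraries, their depth and their scaling with mmu-miR-873a-5p, and miR-345-3p and miR-301b-3p are low, at 9.62 and 14.9 CPM in sham. By total counts the same 5 had r between 0.60 and 0.84, with miR-335-5p at rank 1 and miR-345-3p at rank 2, but miR-379-5p, miR-384-5p and miR-301b-3p at ranks 10, 12 and 16. The abundant ones were lower in pMCAO without passing the test, with log2 fold changes of -0.30 for miR-335-5p, from an intron of the imprinted gene Mest, -0.25 for miR-384-5p and -0.30 for miR-379-5p. The own 3p arm, mmu-miR-873a-3p, ranked 107 of the 478, at r = 0.30, and 167 by total counts, at r = 0.12.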

How the data were processed

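Raw counts per mature miRNA, as deposited by the authors, were used for 6 sham and 5 pMCAO libraries. Per the methods, Ion Torrent reads of 20 to 30 bp were mapped to mm10 with Bowtie and counted on miRBase v21 with HTSeq, after FastQC. Versions and settings are not given in the sources used here. The members and lists were chosen with earlier results of these data known. The tests ran in edgeR 4.0.16 under R 4.3.3 (filterByExpr with a minimum count of 10 and a minimum total of 15, TMM, glmQLFit and glmQLFTest, no covariates, Benjamini-Hochberg over 479 miRNAs, threshold 0.05) and, as an alternative, DESeq2 1.42.0. A standard error is the size of the log2 fold change over the root of its F statistic. Levels in sham were compared by exact permutation tests on log2(CPM + 1). Named were the members, names close to them or sharing a seed, the nearest tested hairpins on the chromosome, the 5 most alike miRNAs and up to 4 of each list. Lists of intronic and cell type miRNAs were written from general knowledge. The labels number the replicates without naming the mice, so the p-values measure the spread between these libraries. Positions and sequences came from RefSeq (GRCm38.p6) and GENCODE vM21. The scripts were tested on simulated data. Alternatives were other normalizations, filters and tools, the replicate block, thinning to the smallest library, pseudocounts and leaving out each library.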

Additional observations from a re-analysis of the deposited data

Results flagged for a closer look

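Of 23 sets of values from 1 group, 5 held a library well apart from the rest of its group, and about 1.15 would by chance. No explanation was tested for any of them. The log2(CPM + 1) of mmu-miR-876-3p was 0.671 in sham replicate 6 and 0 in the remaining libraries of the group, which is its 1 count. Sham replicate 2 had a log2 total of 21.1, against 20.4 to 20.7 in the other sham libraries. Without it the log2 fold change of mmu-miR-873a-5p was -0.50. The log2 of the summed erythrocyte CPM was 12.4 in sham replicate 1, against 5.65 to 8.09 elsewhere in sham. Without it the fold changes of the 5p and 3p arms of miR-873a were -0.56 and -0.37. The same measure for the oligodendrocyte list was 12.1 in sham replicate 4, against 12.3 to 12.4. For the neuron list it was 18.1 in pMCAO replicate 2, against 18.3 to 18.4 in the other pMCAO libraries. Without it the fold changes of the arms were -0.48 and -0.30.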

How the results depend on the processing

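The log2 fold changes of both miR-873a arms were below 0 in all 11 fits that left out a library and in the 10 other planned settings, from -0.60 to -0.38 for the 5p arm and from -0.54 to -0.25 for the 3p arm. From the main fit, the fold change of the 5p arm moved by more than its standard error (0.11) under total counts alone (-0.38). It also did so relative to the summed neuron miRNAs (-0.32). Measured from the median of all tested miRNAs, it was at -0.55 both in the main fit and under total counts alone. The number of lower calls depended most on the processing. Total counts alone gave 43 higher and 1 lower; TMMwsp and upper-quartile scaling gave 4 lower, no filter 8, and 3 were left by a minimum of 10 counts in all libraries, by the replicate block and by thinning. With the replicate number as a block the fold changes were -0.57 and -0.46; same-numbered libraries correlated at -0.08 to 0.23, so the numbers were not taken to pair them. Without one library, 13 to 27 were higher and 2 to 13 lower, the fewest lower without pMCAO replicate 5 (2) and the fewest higher without sham replicate 3 or pMCAO replicate 2 (13). The steps between levels in sham were then 3.58 to 3.69, 3.88 to 4.09 and 1.55 to 1.86, all in the same direction, but 5 libraries cannot reach the threshold. Depth limits miR-876 most, with at most 8 counts in any library. The causes of these changes were not tested.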
